A study of Mus musculus with 11 samples.

Results

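The genes described here are 10 mouse leukocyte adhesion molecules, taken by symbol with no threshold on a measured value, out of 25677 genes in the count table. They are the endothelial ligands Vcam1 and Icam1, the selectins Sele and Selp, the selectin ligand Selplg, the β2 integrin chains Itgal, Itgam, Itgax and Itgb2, and the α4 integrin chain Itga4. All 10 were found in the table, and all 10 had enough counts to be tested in every comparison.

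A leukocyte in the blood first rolls on selectins that the endothelium displays, then stops when its integrins bind endothelial ligands, and then passes through the vessel wall. PSGL-1, the product of Selplg, carries the sugars that P-selectin (Selp) and E-selectin (Sele) bind. Each integrin is a pair of an α and a β chain. LFA-1 (Itgal with Itgb2) and Mac-1 (Itgam with Itgb2) bind ICAM-1, whereas VLA-4 (Itga4 with Itgb1) binds VCAM-1. In the kidney, VCAM-1 can also be made by epithelial cells, including the parietal cells of the glomerulus and injured tubules, and ICAM-1 is made by many cell types.

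RNA-seq was performed on whole kidneys of 11 female mice 21 weeks old, each giving 1 library. The control group (Ctr) was 3 mice of genotype C57B6, bought as C57BL/6J, and the Lpr group was 4 MRL/lpr mice, with no treatment or vehicle stated for either. The DNase group was 4 MRL/lpr mice given daily intraperitoneal DNase I, an enzyme that cuts DNA outside cells, up to the time of sampling. The lpr allele is a mutation of Fas, and mice of this strain develop a nephritis like that of lupus. The control mice differed from the MRL/lpr groups in strain and supplier as well as in disease, and these cannot be told apart here. Library totals were between 33469858 and 38460873 counts. The endothelial, proximal tubule, podocyte and distal nephron markers of the kidney were all detected. Lpr replicate 3 stood apart in that its counts fell with gene length, with a slope of -0.39 on log2 length, against -0.04 to 0.08 in the other 10 libraries. Values are given as CPM, which are counts scaled to library size by TMM. Levels of different genes are compared as FPKM, which are counts divided by the library total, without TMM, and by gene length. Where a gene is set against cell markers, log2 CPM is used, and these values are compared only between kidneys. Because whole kidneys were measured, more cells of a type and more RNA per cell cannot be told apart in any result below.

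Sele lies on chromosome 1 at 164039614-164058487 and Selp at 164115264-164150026 on the same strand. Itgal (127296139-127335137), Itgam (128062640-128118491) and Itgax (128129526-128150657) lie on chromosome 7. Vcam1 lies on chromosome 3 (116110020-116129688), Icam1 on chromosome 9 (21015940-21028814), Selplg on chromosome 5 (113817798-113832528), Itgb2 on chromosome 10 (77530329-77565708) and Itga4 on chromosome 2 (79255426-79333114). All positions are those of RefSeq on GRCm38.p6, the assembly behind mm10. In the RefSeq promoter table, 6 of the 10 genes had an entry (Icam1, Sele, Selp, Itgam, Itgax and Itga4).

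The bases just before the start of 3 of these genes are shown, because promoters of Icam1 and Sele are textbook targets of NF-κB, and the promoter of Itgam of the myeloid factor PU.1. Capitals mark the motifs that were searched in the 250 bases before the start, on both strands. These were GGANNNTCC (the outer bases of a κB site, chosen after the windows had been read), TATAAA in Sele, and GAGGAA (a core of PU.1 sites, which also reads TTCCTC) in Itgam. The Sele sequence is chr1:164048074-164048233 on the plus strand and precedes a start that lies within the annotated gene. The Icam1 sequence is chr9:21015780-21015939, and the Itgam sequence is chr7:128062540-128062639, both on the plus strand.
Sele: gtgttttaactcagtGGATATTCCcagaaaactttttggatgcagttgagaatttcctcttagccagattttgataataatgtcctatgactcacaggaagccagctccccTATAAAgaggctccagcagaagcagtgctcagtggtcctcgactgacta
Icam1: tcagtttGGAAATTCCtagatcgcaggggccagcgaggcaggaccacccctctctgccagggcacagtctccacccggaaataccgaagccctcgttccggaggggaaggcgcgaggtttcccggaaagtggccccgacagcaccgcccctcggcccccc
Itgam: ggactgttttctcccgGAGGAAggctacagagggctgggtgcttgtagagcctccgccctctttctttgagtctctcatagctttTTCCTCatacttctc

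GGANNNTCC began 145 bases before the start of Sele and 153 bases before that of Icam1, and was found in none of the other 4 promoters. It was present in 7.27% of all 32851 mouse promoter windows of this length. GAGGAA was found in Itgam at 84 bases and, reversed, at 15 bases before the start, and reversed in Sele at 107 bases, inside a run left in lower case. It was present in 23.3% of windows. TATAAA stood 49 bases before the start of Sele, and was present in 12.4% of windows. The stricter 10-base NF-κB consensus was found in 0 of the 6 promoters and in 3.9% of windows. These are matches of letters and not measured binding.

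Between the Lpr and Ctr kidneys, 7 of the 10 genes were called higher and none lower, where a call needs an adjusted p under 0.05 and a log2 fold change beyond 2 (edgeR quasi-likelihood test, Benjamini-Hochberg). Over all 16074 genes tested, 5.78% were called, 4.65% higher and 1.13% lower. At an adjusted p under 0.05 alone, 9 of the 10 passed, against 10.2% of all genes (7.27% higher). The lowest Lpr kidney exceeded the highest Ctr kidney for all 10 genes, which was the case for 14.2% of all genes. The median log2 difference of the 10 genes was 2.79, and the median of all genes was 0.03. Between the DNase and Lpr kidneys, 0 of the 10 genes were called, as were 0% of all genes, and all 10 overlapped, with 5 differences above zero and 5 below.

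**Figure D1:**
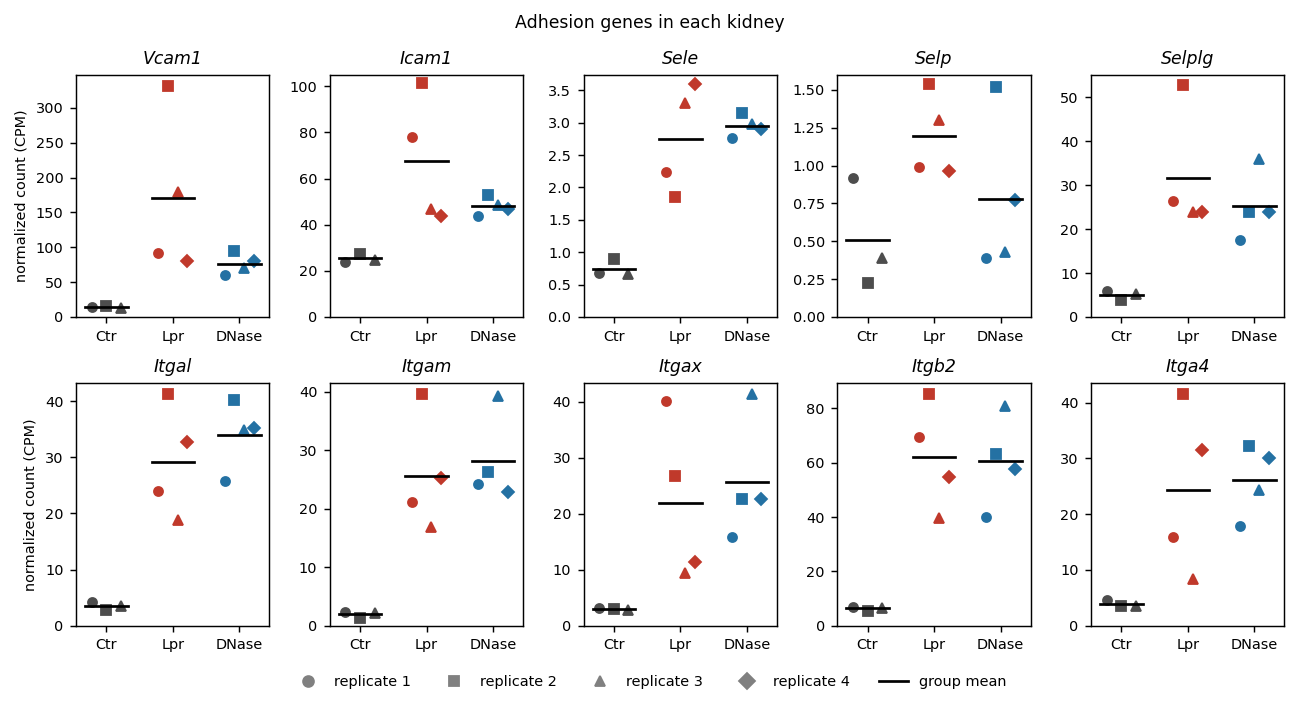
Normalized counts (CPM, linear axis from zero) of the 10 adhesion genes in each kidney, with 3 Ctr, 4 Lpr and 4 DNase mice. Each point is 1 kidney, its shape gives the replicate number and the bar is the group mean. Lpr replicate 2 (square) was the highest of the 8 MRL/lpr kidneys for 8 genes, and the Lpr and DNase points overlap in every panel.

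Vcam1, the ligand of VLA-4 on activated endothelium and epithelium, rose the most among the ligands. It was 14.2, 15.1 and 12.8 CPM in the Ctr kidneys. In the Lpr kidneys it was 92.2, 332, 180 and 80.5 CPM, and in the DNase kidneys 60.5, 94.7, 69.5 and 80.4 CPM. Every MRL/lpr kidney lay far above the highest control, and the Lpr kidneys themselves spread widely (mean 171 ± 116 CPM, SD, n = 4). The log2 difference of Lpr from Ctr was 3.62 ± 0.53 (SE, edgeR adjusted p = 0.00351), and that of DNase from Ctr was 2.44 ± 0.16 (edgeR adjusted p = 1.22e-05).

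Icam1, the ligand of LFA-1 and Mac-1, moved less from a higher resting level. It was 23.8, 27.4 and 24.8 CPM in Ctr, 77.9, 101, 46.9 and 43.8 CPM in Lpr, and 43.6, 52.9, 48.6 and 46.9 CPM in DNase. Lpr replicates 3 and 4 sat among the DNase kidneys, while replicates 1 and 2 sat above all of them. The log2 difference from Ctr was 1.42 ± 0.31 in Lpr (edgeR adjusted p = 0.0211) and 0.92 ± 0.09 in DNase (edgeR adjusted p = 0.000144), so Icam1 passed on p but not the fold threshold. Its adjusted p in Lpr was over 0.05 when Ctr replicate 1, 2 or 3 or Lpr replicate 1 was left out (edgeR adjusted p = 0.102, 0.0775, 0.0877 and 0.0539). Part of the Icam1 exons (11.7% of bases) overlaps the predicted gene Gm47079, and how reads were assigned to a strand is not given in the sources used here.

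The order of the endothelial ligands differed between the groups on the FPKM scale. In the Ctr kidneys Icam1 was the highest of the 10 genes at 9.48 ± 0.50 FPKM (SD, n = 3), above Vcam1 at 3.99 ± 0.24 FPKM, with no overlap. In the Lpr kidneys Vcam1 led at 50.5 ± 35.5 FPKM and Icam1 followed at 26.3 ± 11.2 FPKM (SD, n = 4), with overlapping values. In the DNase kidneys Vcam1 (23.1 ± 4.56 FPKM), Itgb2 (21.0 ± 5.94 FPKM) and Icam1 (19.2 ± 1.71 FPKM) followed each other with overlapping values (SD, n = 4).

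Sele, the E-selectin gene of activated endothelium, was low in counts but separated from the controls. The Ctr kidneys had 0.674, 0.893 and 0.659 CPM, the Lpr kidneys 2.23, 1.85, 3.31 and 3.60 CPM, and the DNase kidneys 2.76, 3.14, 2.98 and 2.91 CPM. The lowest MRL/lpr kidney was Lpr replicate 2, the same kidney that was highest for Vcam1 and Icam1. The log2 difference from Ctr was 1.90 ± 0.36 in Lpr (edgeR adjusted p = 0.0118) and 1.99 ± 0.23 in DNase (edgeR adjusted p = 0.000257). Both values lay just under the fold threshold, and Sele was called in Lpr once Ctr replicate 2 (2.04) or Lpr replicate 2 (2.03) was left out. Its adjusted p in Lpr was 0.069 without Ctr replicate 1 and 0.066 without Ctr replicate 3.

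Selp, the P-selectin gene of endothelium and platelets, had the lowest mean FPKM of the 10 genes in every group, with 7 to 59 counts per kidney. It was 0.917, 0.223 and 0.390 CPM in Ctr, 0.989, 1.54, 1.30 and 0.963 CPM in Lpr, and 0.390, 1.52, 0.429 and 0.772 CPM in DNase. The lowest Lpr kidney exceeded the highest control only narrowly, and the DNase kidneys overlapped both other groups. The log2 difference from Ctr was 1.23 ± 0.51 in Lpr (edgeR adjusted p = 0.204) and 0.59 ± 0.61 in DNase (edgeR adjusted p = 0.557). The 95% intervals ran from 0.07 to 2.39 and from -0.79 to 1.97, and the Selp values varied between kidneys by 71.0% in Ctr and 67.2% in DNase (coefficient of variation). Without Ctr replicate 1, the highest of the controls, the values were 1.96 in Lpr (edgeR adjusted p = 0.0824) and 1.32 in DNase (edgeR adjusted p = 0.252). Exons of Selp overlap the predicted genes Gm16548 and Gm16587 over 14.1% of their bases.

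Selplg, the leukocyte ligand of the selectins, was 5.88, 3.86 and 5.12 CPM in Ctr, 26.3, 52.8, 23.9 and 23.8 CPM in Lpr, and 17.5, 23.9, 35.9 and 23.8 CPM in DNase. Lpr replicate 2 stood alone above the other Lpr kidneys, which lay within a narrow range. The log2 difference from Ctr was 2.69 ± 0.36 in Lpr (edgeR adjusted p = 0.00222) and 2.35 ± 0.26 in DNase (edgeR adjusted p = 0.000201).

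All 4 β2 integrin chains were called higher in Lpr than in Ctr. Itgb2, the shared β chain, was 6.90, 5.42 and 6.68 CPM in Ctr, 69.4, 85.3, 39.5 and 54.9 CPM in Lpr, and 40.0, 63.3, 80.8 and 57.8 CPM in DNase. Its log2 difference of 3.31 ± 0.30 was the one with the smallest p among the 10 genes in this comparison (edgeR adjusted p = 0.000548). In DNase against Ctr the difference was 3.25 ± 0.24 (edgeR adjusted p = 2.16e-05).

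Itgal, the α chain of LFA-1 on lymphocytes and other leukocytes, was 4.21, 2.87 and 3.45 CPM in Ctr. It was 24.0, 41.2, 18.8 and 32.7 CPM in Lpr and 25.7, 40.1, 34.8 and 35.3 CPM in DNase. The lowest MRL/lpr kidney was Lpr replicate 3. The log2 difference was 3.07 ± 0.32 in Lpr (edgeR adjusted p = 0.000783) and 3.27 ± 0.20 in DNase (edgeR adjusted p = 7.98e-06).

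Itgam, the α chain of Mac-1 on monocytes, macrophages and neutrophils, was among the genes with the largest log2 differences from Ctr. In Lpr its value was close to that of Vcam1, which was the higher when Ctr replicate 2 (3.68 against 3.51), Lpr replicate 1 (3.84 against 3.83) or Lpr replicate 4 (3.86 against 3.75) was left out. It was 2.32, 1.28 and 2.22 CPM in Ctr, 21.1, 39.6, 16.8 and 25.3 CPM in Lpr, and 24.2, 26.3, 39.2 and 22.9 CPM in DNase. No MRL/lpr kidney came near the controls. The log2 difference was 3.74 ± 0.38 in Lpr (edgeR adjusted p = 0.000726) and 3.85 ± 0.27 in DNase (edgeR adjusted p = 1.86e-05). The exons of Itgam overlap those of the predicted gene Gm49368 over 68.7% of their bases, and 64.3% of its 100-base windows occur in that gene's transcripts, so its count is uncertain to the extent that such reads were left out or shared.

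Itgax, the α chain found on dendritic cells and many macrophages, spread the most among the integrin chains within the Lpr and DNase groups (coefficient of variation 65.9% and 42.8%) and the least within Ctr (6.04%). It was 3.07, 3.06 and 2.76 CPM in Ctr, 40.1, 26.8, 9.34 and 11.4 CPM in Lpr, and 15.8, 22.7, 41.3 and 22.6 CPM in DNase. The Lpr kidneys fell apart into high values in replicates 1 and 2 and low values in replicates 3 and 4. The log2 difference was 2.89 ± 0.53 in Lpr (edgeR adjusted p = 0.00943) and 3.11 ± 0.32 in DNase (edgeR adjusted p = 0.000144). The call in Lpr was lost without Ctr replicate 1 (edgeR adjusted p = 0.0512).

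Itga4, the α chain of VLA-4, was 4.56, 3.51 and 3.45 CPM in Ctr, 15.9, 41.6, 8.33 and 31.5 CPM in Lpr, and 17.8, 32.2, 24.3 and 30.0 CPM in DNase. Its lowest MRL/lpr value was in Lpr replicate 3, the library whose counts fell with gene length, and the length used for Itga4 (13214 bases) is the longest of the 10. The log2 difference was 2.68 ± 0.53 in Lpr (edgeR adjusted p = 0.0136) and 2.76 ± 0.23 in DNase (edgeR adjusted p = 4.21e-05). Without Lpr replicate 3 the difference was 2.96 (edgeR adjusted p = 0.00152). The call in Lpr was lost when any of the 3 Ctr kidneys was left out (edgeR adjusted p = 0.0561, 0.0666 and 0.0658), with the difference between 2.60 and 2.82. Exons of Itga4 overlap those of Cerkl over 8.04% of their bases.

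**Figure D2:**
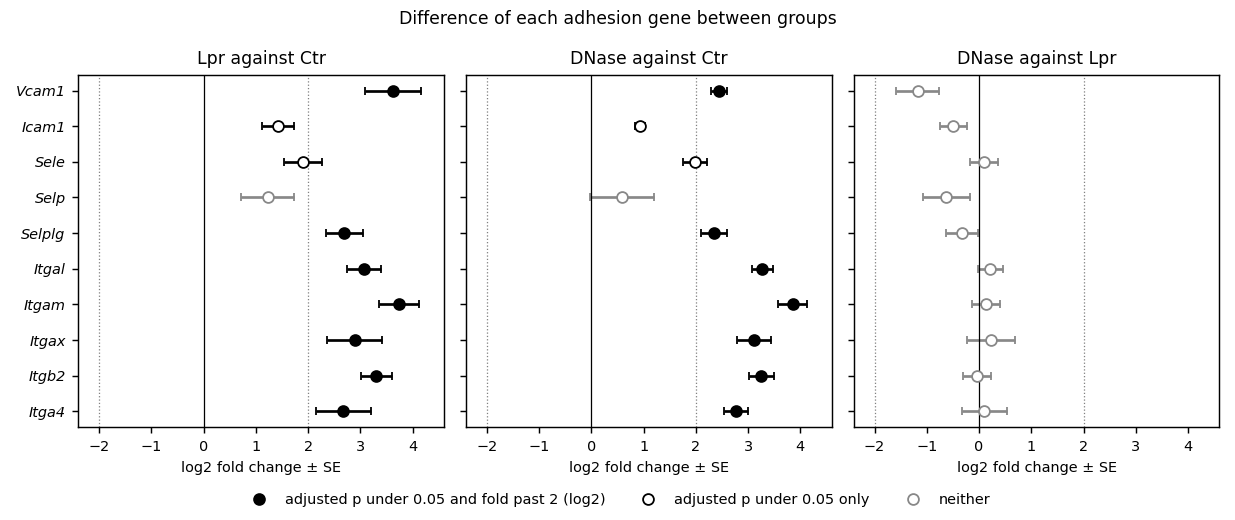
Log2 fold change of each gene with its standard error (horizontal bars) from edgeR fits of the groups in pairs, for Lpr against Ctr, DNase against Ctr and DNase against Lpr. Filled points passed an adjusted p of 0.05 and the fold threshold of 2 (dotted lines), open black points passed on p alone, and grey points passed neither. The first and second panels have 7 filled points each and share the Ctr kidneys, and all points of the third panel are grey.

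In the DNase kidneys against Ctr, 7 of the 10 genes were called higher (Vcam1, Selplg, Itgal, Itgam, Itgax, Itgb2 and Itga4) and 9 passed on p alone, where 6.01% of all 16100 genes tested were called (4.56% higher and 1.45% lower) and 21.7% passed on p alone (13.1% higher). The groups did not overlap for 9 genes, higher in DNase in each, which was the case for 18.2% of all genes. Selp was the exception. The median log2 difference of the 10 genes was 2.60 and that of all genes 0.00. Both comparisons use the same 3 Ctr kidneys, so their results are not independent of each other.

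The comparison of DNase with Lpr asks whether treatment changed the levels of these genes. No gene of the 10 was called, and 0% of the 15832 genes tested were called (edgeR). At an unadjusted p under 0.05, 5.6% of all genes and 1 of the 10, Vcam1, passed. DESeq2 called 2 genes higher and 3 lower over the whole table and 0 of the 10. The DNase and Lpr kidneys overlapped for all 10 genes, and 3.76% of all genes did not overlap.

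Vcam1 had the lowest log2 difference of the 10 between DNase and Lpr, at -1.17 ± 0.41 (edgeR adjusted p = 0.82). The DNase mean was 76.3 ± 14.8 CPM and the Lpr mean 171 ± 116 CPM (SD, n = 4 each). The upper 2 Lpr kidneys lay above every DNase kidney, and the lower 2 lay within the DNase range. Lpr replicate 2 decided much of the difference, which was -0.64 without it and between -1.41 and -1.07 without any other kidney. The 95% interval of the difference, -2.10 to -0.25, is not adjusted for the number of genes tested.

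Icam1 differed by -0.49 ± 0.25 between DNase and Lpr (95% interval -1.06 to 0.08), and Selp by -0.63 ± 0.45 (-1.64 to 0.38). Selplg differed by -0.33 ± 0.30 (-1.01 to 0.35) and Sele by 0.10 ± 0.26 (-0.49 to 0.68). Compared with Icam1, Selp and Selplg, the integrin chains lay closer to zero. They were -0.04 ± 0.26 for Itgb2 (-0.64 to 0.55), 0.22 ± 0.24 for Itgal (-0.33 to 0.76), 0.13 ± 0.27 for Itgam (-0.48 to 0.74), 0.23 ± 0.46 for Itgax (-0.81 to 1.26) and 0.10 ± 0.43 for Itga4 (-0.85 to 1.06). The intervals of the integrin chains all held zero and reached from -0.85 to 1.26 at the widest, and the direction of Sele, Selplg, Itgam, Itgax, Itgb2 and Itga4 changed when certain kidneys were left out.

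The spread between kidneys differed between the MRL/lpr groups for several genes. The coefficient of variation was 67.8% in Lpr and 19.3% in DNase for Vcam1, 40.4% and 8.06% for Icam1, and 30.5% and 5.37% for Sele. For Selp it ran the other way, at 22.8% in Lpr and 67.2% in DNase. The difference in spread was not tested, since 4 kidneys in each group give little power for it. Lpr replicate 2 was the highest of the 8 MRL/lpr kidneys for 8 of the 10 genes, the exceptions being Sele and Itgax. Lpr replicate 3 was the lowest for 5 genes, all of them integrin chains (Itgal, Itgam, Itgax, Itgb2 and Itga4), and was second highest for Vcam1 and Sele.

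Whether the adhesion genes moved with cells was described by setting them against cell markers. The 5 all-leukocyte markers (Ptprc, Coro1a, Laptm5, Cd52 and Cd53) summed to 49.8 to 69.9 CPM in Ctr, 287 to 507 CPM in Lpr and 230 to 432 CPM in DNase, and 5 of 5 were called higher in Lpr and in DNase than in Ctr. T cell markers were called higher in 5 of 5 and macrophage and monocyte markers in 5 of 6 in both comparisons. Of the neutrophil markers, 2 of 5 tested were called in Lpr and 3 of 5 in DNase, and Ly6g had 3 counts or fewer in every kidney. Dendritic cell markers, which matter for Itgax, summed to 10.5 to 13.1 CPM in Ctr, 12.0 to 23.5 CPM in Lpr and 19.5 to 22.9 CPM in DNase. Of these, 1 of 5 was called higher in each comparison, and 1 of 5 was called lower in DNase. They did not move together. Cd209a averaged 1.25 CPM in Ctr, 0.37 CPM in Lpr and 0.12 CPM in DNase, and Zbtb46 averaged 8.70, 8.21 and 9.19 CPM. Of 4 B cell markers, 1 was called higher in Lpr and 3 in DNase. Over all genes, 4.65% were called higher in Lpr and 4.56% in DNase against Ctr, and 1.45% were called lower in DNase. Leukocyte markers were thus higher in the same groups as the integrin chains and Selplg, though not in step with them in every kidney. Lpr replicate 3, the lowest MRL/lpr kidney for all 5 integrin chains, had a marker sum of 346 CPM, above Lpr replicates 1 (313 CPM) and 4 (287 CPM). Counts of that library fell with gene length, and the part of gene length in this mismatch was not tested.

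The endothelial markers did not move in that way. The 8 markers (Cdh5, Kdr, Tek, Egfl7, Erg, Emcn, Plvap and Tie1) summed to 593 to 736 CPM in Ctr, 522 to 622 CPM in Lpr and 464 to 643 CPM in DNase. None of the 8 was called in any comparison, 1 passed on p alone (lower in DNase than in Ctr), and their median log2 difference was -0.27 in Lpr and -0.26 in DNase against Ctr. Of the platelet markers, which matter for Selp, 0 of 3 tested were called in Lpr, and Gp1ba had 3 counts or fewer in every kidney. Markers of podocytes, the proximal tubule, other nephron segments and fat gave 0 calls in Lpr against Ctr. Of the lymph node markers, 1 of 3 tested was called in Lpr and 2 of 4 in DNase, with a sum of 9.95 to 15.2 CPM in Ctr and 19.3 to 43.5 CPM in the MRL/lpr kidneys, and Glycam1 had 3 counts or fewer in every kidney.

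Relative to the mean log2 CPM of the endothelial markers, Vcam1 was -2.14, -1.84 and -2.37 in Ctr, 0.90, 2.55, 2.19 and 0.59 in Lpr, and -0.01, 0.89, 0.55 and 0.86 in DNase. The log2 difference of Lpr from Ctr on this scale was 3.67 for Vcam1, 1.63 for Icam1, 2.08 for Sele and 1.62 for Selp. For each of the 4 genes the groups did not overlap (p = 0.0286 by an exact two-sided permutation test, which 4 against 3 kidneys cannot go below, adjusted p = 0.109 over 42 tests). After this adjustment, 0 of the 42 tests passed 0.05. In DNase against Ctr the values were 2.69 for Vcam1, 1.19 for Icam1 and 2.20 for Sele without overlap, and 0.83 for Selp with overlap.

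Relative to the leukocyte markers, Itgam was the only one of the 6 leukocyte genes that separated Lpr from Ctr. It was 1.05 above Ctr in Lpr (exact permutation p = 0.0571, adjusted p = 0.185) and 1.38 above Ctr in DNase (exact permutation p = 0.0286, adjusted p = 0.109), without overlap in either. Itgb2 was 0.63 above Ctr in Lpr with overlap and 0.75 above in DNase without. Selplg differed by -0.01, Itgax by 0.00, Itga4 by -0.20 and Itgal by 0.38 in Lpr, all with overlap. For Itgb2 and Itgal the overlap came only from Lpr replicate 3, whose counts fell with gene length. It was at -0.72 for Itgb2 (highest Ctr kidney -0.64) and -1.79 for Itgal (highest Ctr kidney -1.58). The part of gene length in these values was not tested. In DNase against Ctr, Itgal was 0.79 and Itgax 0.54 higher with a value of -0.15 for Selplg, all without overlap, and Itga4 was 0.26 higher with overlap. Between DNase and Lpr, all 14 measures overlapped.

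**Figure D3:**
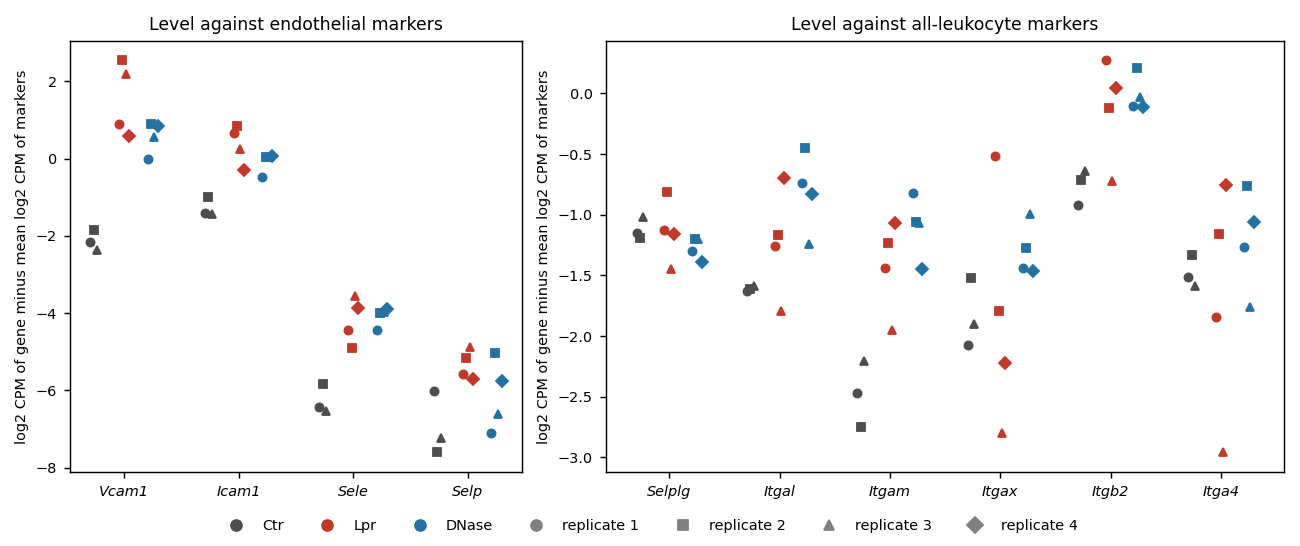
Log2 CPM of each gene minus the mean log2 CPM of endothelial markers (left, 4 vascular genes) or of all-leukocyte markers (right, 6 leukocyte genes), with 1 point per kidney, colour for the group and shape for the replicate. On the left, the Lpr points of Vcam1, Icam1, Sele and Selp lie above the Ctr points, while on the right only Itgam separates Lpr from Ctr without overlap. Itgb2 and Itgal overlap there through Lpr replicate 3 alone.

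The α chains that pair with Itgb2 were compared as FPKM. Their summed level was 1.41 to 1.95 FPKM in Ctr, 8.67 to 23.2 FPKM in Lpr and 14.1 to 25.3 FPKM in DNase. Itgam made up 23.3 ± 4.70% of this sum in Ctr (SD, n = 3), 34.9 ± 6.82% in Lpr and 33.0 ± 3.75% in DNase (SD, n = 4 each). The share in Lpr overlapped Ctr (exact permutation p = 0.114) and the share in DNase did not (exact permutation p = 0.0286, adjusted p = 0.109). Itgal made up 36.8 ± 1.88% in Ctr, 34.6 ± 7.80% in Lpr and 35.1 ± 6.34% in DNase, and Itgax made up 39.6 ± 6.30%, 30.1 ± 14.3% and 31.4 ± 5.48%. Itgad, the last α chain of the family, made up 0.321% in Ctr, 0.453% in Lpr and 0.423% in DNase on average. In Itgax, 3.05% of 100-base windows also occur in Itgad. In Itgam, 64.3% of such windows also occur in Gm49368, so its share of the sum is uncertain, as its count is.

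**Figure D4:**
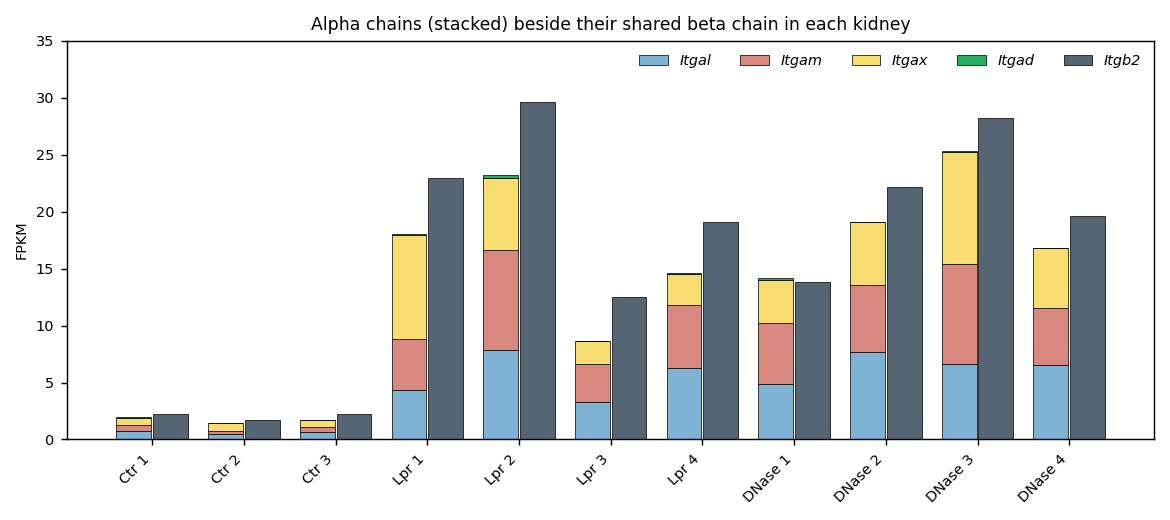
FPKM of the α chains Itgal, Itgam, Itgax and Itgad, stacked, beside the FPKM of their shared β chain Itgb2 in each of the 11 kidneys. The sum of the α chains and Itgb2 rose together, from at most 2.26 FPKM in every Ctr kidney to between 8.67 and 29.6 FPKM in the MRL/lpr kidneys.

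Itga4 pairs with Itgb1 or Itgb7. Itgb1, which is expressed by nearly all cells, was 63.6 to 88.4 FPKM in Ctr, 74.5 to 107 FPKM in Lpr and 70.4 to 89.4 FPKM in DNase, and its log2 difference of Lpr from Ctr was 0.16 ± 0.19 (edgeR adjusted p = 0.681). Itgb7, a leukocyte chain that forms the gut-homing integrin with Itga4, was 0.325 to 0.630 FPKM in Ctr, 1.82 to 3.10 FPKM in Lpr and 1.62 to 2.49 FPKM in DNase. It was called higher in Lpr (2.21 ± 0.29, edgeR adjusted p = 0.00223) and in DNase (2.13 ± 0.25, edgeR adjusted p = 0.000274). Of 20 other integrin chains tested, Itgb7 was the only one called in Lpr against Ctr, where 5.78% of all genes were called (4.65% higher). Itgae, the α chain that also pairs with Itgb7, passed on p alone (1.80 ± 0.39, edgeR adjusted p = 0.0201), and Itga9 did not (0.63 ± 0.30, edgeR adjusted p = 0.27).

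Among the other selectin ligands and the enzymes that build their sugars, 3 of 15 genes tested of 18 listed were called higher and 1 lower in Lpr against Ctr, with a list median of 0.67. Over all genes, 4.65% were called higher and 1.13% lower. Cd44, a hyaluronan receptor that can also bind E-selectin, was 2.01 to 4.61 CPM in Ctr and 18.7 to 49.5 CPM in Lpr (log2 difference 3.22 ± 0.46, edgeR adjusted p = 0.00326). St3gal4, a sialyltransferase that acts on selectin ligands, passed on p alone (1.18 ± 0.18, edgeR adjusted p = 0.00373). B3gnt3, which extends the sugars of selectin ligands, was called lower, from 4.56 to 5.36 CPM in Ctr to 0.916 to 1.39 CPM in Lpr (-2.10 ± 0.26, edgeR adjusted p = 0.00176). Lpr and Ctr kidneys of different strain differed in this gene without overlap, and the part of strain in it cannot be told apart from disease.

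Genes of endothelial junctions and relatives of Icam1 showed no call in either direction among 14 tested of 18 listed (median -0.08), where 5.78% of all genes were called. Cd47, a ubiquitous membrane protein that leukocytes and endothelium engage during passage, passed on p alone, at 38.5 to 43.6 CPM in Ctr and 78.6 to 122 CPM in Lpr (1.28 ± 0.19, edgeR adjusted p = 0.00389). Jam3 (0.71 ± 0.22, edgeR adjusted p = 0.0908) and Jam2 (-0.64 ± 0.31, edgeR adjusted p = 0.281), both junctional adhesion molecules, did not pass.

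The next list held 18 genes linked, in either direction, to the switch of integrins between a resting and a binding state. Of these, 5 were called higher and 7 passed on p alone in Lpr against Ctr (median 0.59). Of all genes, 4.65% and 7.27% did so in this direction. A difference above zero was seen in 17 of the 18, and in 8446 of all 16074 genes. Lcp2, the adaptor SLP-76, was 1.47 to 2.29 CPM in Ctr and 17.9 to 22.5 CPM in Lpr (3.30 ± 0.24, edgeR adjusted p = 0.000293). Fyb, the adaptor ADAP (3.06 ± 0.28, edgeR adjusted p = 0.00056), and Vav1, an exchange factor of blood cells (2.90 ± 0.31, edgeR adjusted p = 0.000918), were called as well. These 3 genes are expressed mainly in leukocytes, whose markers were higher in the same group, and the part of leukocyte content in these differences was not tested.

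Of 12 cytokine and NF-κB genes that act upstream of endothelial adhesion molecules, 5 were called higher in Lpr against Ctr, with a median of 2.04. The share of all genes called higher was 4.65%. Some of the list rested on few counts. Tnf, which was called, had 6 counts in each Ctr kidney and 12 to 50 in Lpr. Lta, also called, had 1 to 4 counts in Ctr and 10 to 17 in Lpr. Il1a, not called, had 0 to 2 counts in Ctr and 1 to 31 in Lpr. Il1b was 1.05 to 1.67 CPM in Ctr and 8.30 to 28.3 CPM in Lpr (3.44 ± 0.49, edgeR adjusted p = 0.00299). Tnfrsf1b, a TNF receptor, was 6.50 to 9.08 CPM in Ctr and 24.9 to 48.6 CPM in Lpr (2.01 ± 0.30, edgeR adjusted p = 0.00359). Ifng was at 0.0300 to 0.0809 CPM in Ctr, or 3 counts or fewer per kidney, and at 0.521 to 1.24 CPM in Lpr, and was called higher (edgeR adjusted p = 0.00391), with no fold given against so few counts. In DNase against Ctr, the calls were 4 higher and 1 lower among selectin ligands, 0 among junctional genes, 1 higher among other integrin chains, 5 higher among integrin activation genes and 4 higher among cytokine and NF-κB genes. The shares of all genes tested against Ctr there were 4.56% higher and 1.45% lower. In DNase against Lpr, 0 genes of these 5 lists were called, where 0% of all genes were. The list medians in that comparison were -0.14, -0.16, -0.06, -0.12 and -0.22 in the order described from selectin ligands, junctions, other integrin chains and integrin activation to cytokines.

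The genes whose levels followed each member most closely across the 8 MRL/lpr kidneys, after the group means were removed, are given as a description over 13224 genes (13225 for Selp), without a test of how far single kidneys set them. Vcam1 was followed by Mmp14 (r = 0.98) and Rnf149 (r = 0.98), and Icam1 by Zbp1 (r = 0.99) and Adam8 (r = 0.99). Sele was followed by Cav1 (r = 0.98), an abundant endothelial gene, and Krit1 (r = 0.98). Selp had weaker matches, with Srp54b (r = 0.95) and Hs6st2 (r = 0.93).

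Among the leukocyte genes, Selplg was followed by Il10ra (r = 0.99) and Kcnk13 (r = 0.97), Itgal by Dusp16 and Tent5c (r = 0.99 each), and Itgam by Prune2 and Rnf157 (r = 0.98 each). Itgax was followed by Serpina3g (r = 0.99) and Cxcl9 (r = 0.97), both interferon-responsive, and Itgb2 by Cyth4 (r = 0.98). Itga4 was followed by Cd300ld and Slamf7 (r = 0.99 each). Among the 10 genes themselves, Itgal and Itga4 were the closest pair (r = 0.97), and Icam1 and Sele were the most opposed (r = -0.93), over the same 8 kidneys. Itgal and Itga4 were both lowest in Lpr replicate 3, whose counts fell with gene length. The lengths used for them (5420 and 13214 bases) are the longest of the 10. The part of gene length in their r was not tested.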

How the data were processed

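The authors deposited raw counts per gene, which are whole numbers. FPKM values, also deposited by the authors, are these counts divided by the library total and a gene length. The paper names HTSeq as the tool that placed paired-end reads on genes, and the submitters' processing notes name fastp, HTSeq and build mm10. The annotation and strand handling are not given in the sources used here. Reads of MRL/lpr mice were counted on a C57BL/6J reference. Libraries held 33469858 to 38460873 counts, and the number of unused columns was 0.

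R 4.3.3 with edgeR 4.0.16 compared groups in pairs (filterByExpr, TMM, quasi-likelihood test), with only the libraries of the groups compared in each fit. Called genes had a Benjamini-Hochberg adjusted p under 0.05 over all genes tested and an absolute log2 fold change above 2. Intervals are 95% from the fit. Log2 CPM used a prior count of 2. DESeq2 1.42.0, limma 3.58.1 on log2(FPKM + 1) or log2(FPKM + 0.1) where the mean FPKM reached 0.5, other normalizations and filters, a gene length offset and leaving out each library were alternatives. Values per kidney were compared by exact permutation tests (scipy 1.17.1), two-sided. Figures used matplotlib 3.10.9. Nothing states more than 1 mouse per library, and p-values measure the spread between these mice.

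The members and gene lists were chosen with earlier results of these data known. All members were described, with the 3 genes of each pathway list with the smallest p in Lpr against Ctr, marker lists as counts and ranges, and the 2 genes most correlated with each member in the 8 MRL/lpr kidneys (mean of at least 1 CPM, without predicted genes and receptor segments). Itgb1 was added as the partner of Itga4. A result of 1 gene that this rule names is not reported here.

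On simulated data with 200 genes changed by a log2 fold change of 3, 194 were recovered with 4 false calls in Lpr against Ctr over 16074 genes, 200 with 2 false calls in DNase against Lpr over 15832, and 200 with 1 in DNase against Ctr over 16100. The changed genes were drawn only from those above a minimum mean count. The recovery of smaller differences, such as those between DNase and Lpr, or of genes with few counts, such as Selp, was not simulated.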

Additional observations from a re-analysis of the deposited data

Results flagged for a closer look

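Selplg in Lpr replicate 2 was 52.8 CPM, against 23.8 to 26.3 CPM in the other 3 Lpr kidneys, and lay farther from them than Dixon's 95% limit for 4 samples allows. It was 1 of 20 groups tested for the 10 genes, and chance alone flags about 1 in 20. Without this kidney the log2 difference of Selplg between Lpr and Ctr was 2.31 and that between DNase and Lpr was 0.02.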

How the results depend on the processing

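Of the counts of adhesion genes called, 1 moved by over 1.5 times, from 7 to 4 in Lpr against Ctr with limma on log2(FPKM + 1). This scale compresses low values. Sele and Selp were not tested on it, and Itgal, Itgax and Itga4 fell under the fold threshold (1.93, 1.70 and 1.06). Itga4 did not pass on p there either (limma adjusted p = 0.0886). Leaving out each library gave 5 to 8 genes called in Lpr against Ctr, 7 to 8 in DNase against Ctr and 0 in DNase against Lpr. Under every alternative run, 0 of the 10 genes were called in DNase against Lpr. No gene of the 10 changed direction against Ctr.

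Between DNase and Lpr, Itgb2 changed direction with limma on log2(FPKM + 1) (0.015) and log2(FPKM + 0.1) (0.017), and Itga4 with a gene length offset and Lpr replicate 3 left out (-0.16), an alternative added after the data were seen. Over the libraries left out in turn, the log2 difference ran from -0.22 to 0.14 for Itgb2, -0.19 to 0.48 for Itga4, -0.070 to 0.41 for Itgam, -0.10 to 0.69 for Itgax, -0.064 to 0.25 for Sele and -0.55 to 0.021 for Selplg. The cause was not tested.

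Over all genes, limma on log2(FPKM + 1) called 183 higher and 30 lower in Lpr against Ctr, against 747 and 182, and 155 and 35 in DNase against Ctr, against 734 and 233. With log2(FPKM + 0.1) these were 484 and 82, and 451 and 95. On p alone, 1639 genes passed in Lpr against Ctr, 2515 with DESeq2, 2555 with all 11 libraries in the fit and 852 to 2824 with a library left out. In DNase against Ctr 3493 passed, and 1889 with all 11 libraries in the fit. In DNase against Lpr, DESeq2 passed 17 genes on p alone.

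Whether the replicate numbers pair the mice is not known. Deviations of kidneys with the same number correlated between -0.28 and 0.16. This cannot settle the question, since kidneys of different number were not compared. With the replicate number as a block, 7 of the 10 genes were called in Lpr against Ctr, 0 in DNase against Lpr and 8 in DNase against Ctr, the additional gene being Sele (2.00). On p alone 8 of the 10 passed in Lpr against Ctr, Sele being lost (edgeR adjusted p = 0.0729), and 1869 genes passed on p alone in DNase against Ctr. The fewest counts were those of Selp, 7 to 59 per kidney, and of Sele, 22 to 28 in Ctr, and the part of depth in their spread was not tested.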

Other observations

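The level of the α chains per Itgb2, noticed after the values were seen, was 0.777 to 0.862 in Ctr, 0.694 to 0.783 in Lpr and 0.857 to 1.02 in DNase, as the ratio of their summed FPKM. The DNase and Lpr kidneys did not overlap, with a difference of 0.153 (p = 0.0286 by an exact two-sided permutation test, which 4 against 4 kidneys cannot go below, without adjustment for the ratios that could have been looked at). The difference was between 0.116 and 0.170 when each kidney was left out in turn. Neither group was separated from Ctr (exact permutation p = 0.114 for Lpr and 0.171 for DNase). The lowest ratio was that of Lpr replicate 3, whose counts fell with gene length, and the α chains are longer than Itgb2. The part of gene length in this ratio was not tested beyond leaving out that kidney, which gave 0.132.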
